A study of Rattus norvegicus with 12 samples.

Results

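Laminin plating was compared with suspension culture in rat cardiac progenitor cells, using the 3 laminin libraries and the 3 suspension libraries of a series of 12. Membership followed the culture condition in the labels, and libraries with the same replicate number share a batch. The cells are a line derived from 1 clone, cultured in F12 medium with 10% fetal bovine serum, leukemia inhibitory factor, basic fibroblast growth factor, erythropoietin and glutathione. The series asks, by its title, how the matrix instructs the fate of such cells, and its other 6 libraries come from cells on fibronectin and on dishes without coating. For the laminin group, cells were seeded sparsely on laminin-coated dishes and kept for 2 h in 0.1% serum. The labels of the suspension libraries repeat the plating protocol and do not say how those cells were held or for how long. Attachment, spreading, time in low serum and contact with laminin therefore cannot be told apart in this comparison.

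Laminins are trimeric proteins of basement membranes. Cells bind them through integrins, chiefly those that pair a laminin-binding alpha chain with beta1 or with beta4, and through dystroglycan, syndecans, the Lutheran antigen Bcam and the non-integrin laminin receptor encoded by Rpsa. Bound integrins recruit focal adhesion kinases and adaptors that feed into MAP kinases and PI3K, and cell shape and actin tension act on YAP and TAZ, co-activators of the TEAD transcription factors. In the heart, laminins surround cardiomyocytes and vessels, and progenitor lines meet them when plated or grafted.

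Expression was measured by RNA sequencing of libraries from a stranded total RNA kit, as read counts per gene. The 6 libraries held between 16553746 and 20852160 counts, and 10020 genes were tested. Values are CPM, read counts divided by a library size that TMM scaling adjusted, and a change is a log2 fold change of laminin minus suspension ± its SE. A gene was called when its Benjamini-Hochberg adjusted p over the 10020 genes was under 0.05 in the quasi-likelihood test of edgeR. The verbs rose and fell are kept for called genes, and n = 3 in each group. The p-values measure variation between batches of 1 clonal line, not between animals. Laminin 3 stood apart from laminin 1 and 2 on the first principal component (35.0 against 0.837 and -1.14), with the suspension libraries between -30.8 and -27.8. The other attached libraries of batch 3 were shifted the same way. Fibronectin 3 was at 20.8 (fibronectin 1 and 2 at -1.53 and -7.04) and no coating 3 at 41.9 (no coating 1 and 2 at -3.02 and 1.46). In bulk RNA, fewer cells of a type and less RNA per cell cannot be told apart.

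Plating on laminin was accompanied by changes in 1905 genes (19%), of which 1208 (12.1%) rose and 697 (6.96%) fell. The counts of calls in the lists below are to be read beside these shares. The lists were written with earlier results of these data known, so a rank of a list among them is a description and not a test. Changes of at least 2-fold were called for 247 genes (2.47%), 147 higher (1.47%) and 100 lower (0.998%). Over all genes tested, each laminin library lay above each suspension library in 23.5% and below in 22.5%. The groups did not overlap in 1898 of the 1905 called genes, so separate groups add little to a call. The list of receptor genes held 306 tested genes, of which 39 rose and 30 fell, and 19 rose and 6 fell by at least 2-fold. Signalling lists held 645 tested genes with 71 rises and 99 falls, transcription factor lists 358 with 51 rises and 50 falls, and metabolic lists 856, of which 18.34% rose and 6.66% fell. The median change was -0.09 over the signalling genes, -0.11 over the transcription factors and 0.09 over the metabolic genes, against -0.01 over all genes tested. With the batch as a block, 4333 genes (43.2%) were called, 2246 higher (22.4%) and 2087 lower (20.8%). With only the 6 laminin and suspension libraries and the block, 703 were called, 393 higher and 310 lower. Without batch 3, 859 genes rose (8.55%) and 1035 fell (10.3%) of 10045, so the split between rises and falls turned. The calls numbered 907 without suspension 2, 797 without suspension 3, 1264 without laminin 2 and 1115 without laminin 3.

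**Figure D1:**
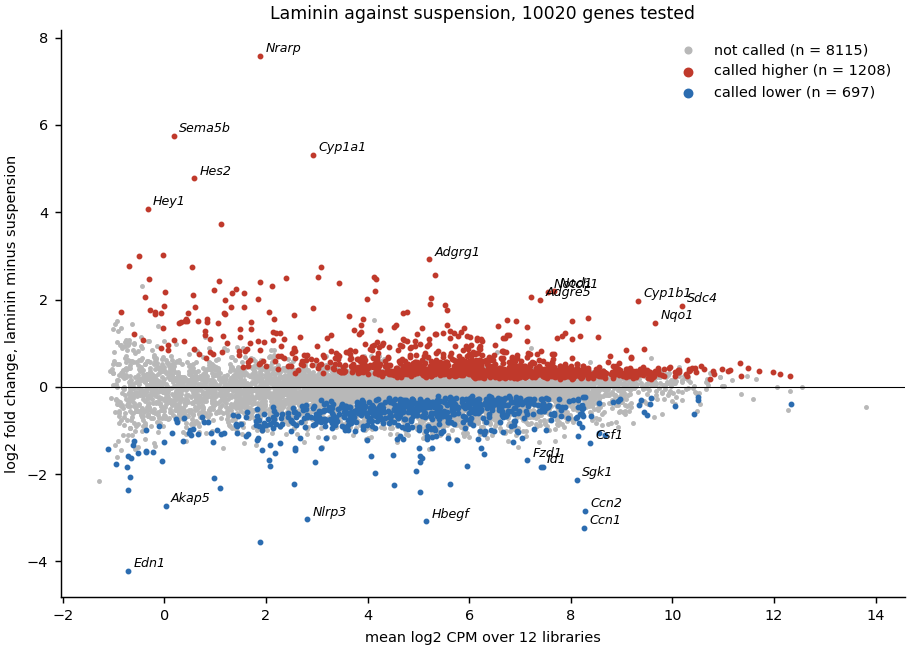
Each point is 1 of 10020 genes, with its mean log2 CPM over 12 libraries on the x axis and its log2 fold change of laminin minus suspension on the y axis. Red points are the 1208 genes called higher, blue points the 697 called lower and grey points those not called. Of the 1905 called changes 247 reach 2-fold. The lowest point is Edn1 at -4.22, which rests on very few reads on laminin, and the height of the topmost, Nrarp, rests on 1 count in suspension.

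Of 19 tested integrin and laminin receptor genes, 4 rose and 0 fell in edgeR, a share of 21.1% against 19% of all genes. At an unadjusted p under 0.05 there were 5 rises and 1 fall, DESeq2 called 4 and 1, and the block gave 4 and 3. The 4 were Sdc4, Sdc1, Rpsa and Itga5. Sdc4 (24771), a heparan sulfate proteoglycan of focal adhesions, was measured at 389, 404 and 368 CPM in suspension 1, 2 and 3 and at 1629.5, 1203 and 1384 CPM on laminin 1, 2 and 3, a rise of 1.86 ± 0.14 (edgeR adjusted p = 1.05e-05). Sdc1 (25216), another syndecan, rose by 0.61 ± 0.09 from 797, 1034 and 929 to 1341, 1417 and 1449 CPM. Rpsa (29236), which also encodes a protein of the small ribosomal subunit, rose by 0.43 ± 0.10 from 1129, 1133 and 1147 to 1435, 1505 and 1668 CPM, though reads of genes with near-identical copies such as this one are assigned with uncertainty. In these genes each laminin library lay above each suspension library. The fibronectin receptor chain Itga5 was higher by 0.34 ± 0.10 (edgeR adjusted p = 0.0319) and lost its call in 5 of the 6 fits that left out 1 library, over which it ranged from 0.25 to 0.40 (edgeR adjusted p up to 0.112).

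The chains that bind laminin itself gave no call. Itgb1, the beta chain shared by most of them, was measured at 2609, 2974 and 2892 CPM in suspension and 2802, 2826 and 1931 CPM on laminin, with laminin 3 below the other 5 libraries and a change of -0.16 ± 0.17 (edgeR adjusted p = 0.511). Itga6, which forms laminin receptors with both beta1 and beta4, was at 221, 314 and 313 CPM in suspension and 206, 232 and 202 CPM on laminin, and its groups overlapped. Its change was -0.41 ± 0.14 (edgeR adjusted p = 0.0711, and 0.01 with the batch as a block). The dystroglycan gene Dag1 changed by 0.08 ± 0.06, the muscle laminin receptor chain Itga7 by -0.01 ± 0.14 and the hemidesmosome chain Itgb4 by 0.17 ± 0.22, and none of these passed.

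G protein-coupled receptors were the receptor list with the most calls: 17 of 75 tested genes rose and 7 fell. The adhesion receptor Adgrg1 (260326), which binds collagen and transglutaminase, stood at 6.05, 6.39 and 6.87 CPM in suspension and at 50.4, 46.0 and 50.1 CPM on laminin. It rose 7.58-fold, or 2.92 ± 0.12 on the log2 scale (edgeR adjusted p = 4.4e-07). Adgre5 (361383), the adhesion receptor CD97, went from 54.3, 56.04 and 54.1 CPM to 222, 222 and 212 CPM and rose by 2.00 ± 0.07 (edgeR adjusted p = 2.62e-07). In both genes the replicates of a group lay close together and the groups were far apart.

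The membrane estrogen receptor gene Gper1 rose by 2.02 ± 0.26 from 7.28, 3.03 and 4.27 to 20.2, 17.8 and 20.9 CPM. The protease-activated receptor gene F2rl1 rose by 1.20 ± 0.12 from 46.8, 58.4 and 59.5 to 113, 122 and 142 CPM. The orphan receptor genes Mrgprf (2.38 ± 0.26) and Gpr146 (1.64 ± 0.22) and the bradykinin receptor gene Bdkrb1 (1.25 ± 0.19) rose too, and in each of these genes the groups did not overlap. Hcar2, a receptor for hydroxybutyrate and niacin, had 9 counts over the suspension libraries and 54 over the laminin libraries, a 5.67-fold ratio (95% counting interval 2.78 to 13.1), where the interval covers counting error only.

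Frizzled receptors, which bind Wnt proteins and belong to the same list, moved in both directions. Fzd1 (58868) fell by 1.69 ± 0.13 from 334, 229 and 257 CPM to 84.2, 76.6 and 93.8 CPM (edgeR adjusted p = 1.65e-05). Fzd7 (100360552) rose by 1.15 ± 0.07 from 36.9, 35.1 and 38.1 CPM to 75.5, 84.4 and 83.9 CPM (edgeR adjusted p = 4.69e-06). In Fzd1 each laminin library lay below each suspension library, and in Fzd7 above.

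Of 33 receptor tyrosine kinases tested, 2 rose and 4 fell, a share of 18.2% against 19% of all genes. Epha2 (366492), an ephrin receptor of epithelial and migrating cells, fell by 1.85 ± 0.19 from 223, 408 and 332 CPM to 90.0, 74.7 and 103 CPM (edgeR adjusted p = 0.000132). Ephb3 (287989), a receptor for B-type ephrins, rose by 1.40 ± 0.11 from 46.0, 38.2 and 39.8 CPM to 93.2, 109 and 124.2 CPM (edgeR adjusted p = 2.4e-05). Efnb2 (306636), a B-type ephrin, fell by 1.97 ± 0.14 from 33.2, 39.2 and 34.1 CPM to 9.02, 8.62 and 9.60 CPM (edgeR adjusted p = 1.02e-05). In these 3 genes of the ligand and receptor family, named because they were called at 2-fold or more, suspension and laminin did not overlap. Met, the hepatocyte growth factor receptor gene, fell by 0.87 ± 0.16.

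Among 13 innate immune sensors, 2 rose and 2 fell. Nod1 (500133), an intracellular sensor of peptidoglycan, went from 61.5, 58.3 and 55.9 CPM to 287, 238 and 286 CPM, a rise of 2.21 ± 0.11 (edgeR adjusted p = 1.54e-06). Nlrp3 (287362), the scaffold of an inflammasome, went from 15.3, 20.29 and 13.6 CPM to 1.97, 1.68 and 2.36 CPM, a fall of 3.04 ± 0.20 (edgeR adjusted p = 4.98e-06). The endotoxin co-receptor gene Cd14 rose by 0.72 ± 0.07. Of 35 cytokine and TNF family receptor genes, 4 rose and 2 fell, a share of 17.1% against 19% of all genes.

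Axon guidance genes gave 4 rises and 6 falls of 33, and ion channels and connexins gave 5 rises and 6 falls of 87. The semaphorin gene Sema5b had 1 count over the suspension libraries and 16, 31 and 31 on laminin 1, 2 and 3, which is a 73.7-fold ratio (95% counting interval 12.8 to 2948). The gap junction gene Gja4 (25655) rose by 1.89 ± 0.20 from 10.9, 15.9 and 12.2 CPM to 38.1, 55.1 and 51.8 CPM (edgeR adjusted p = 0.000178). Gja1, the main ventricular connexin gene, fell by 0.66 ± 0.09 from 387, 442 and 415 CPM to 283, 272 and 233.5 CPM (edgeR adjusted p = 0.00104). In both connexins the groups did not overlap.

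**Figure D2:**
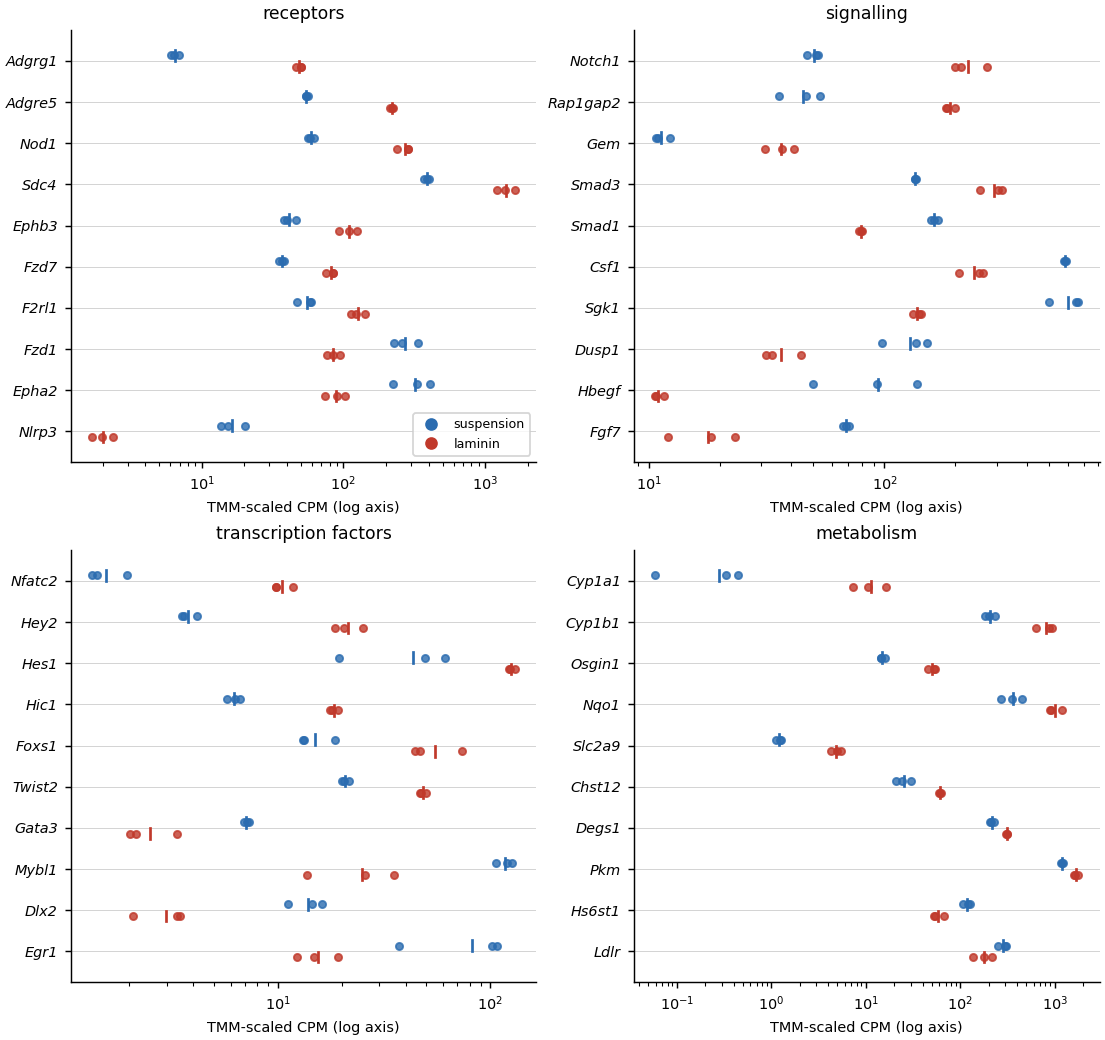
Each dot is 1 library, with TMM-scaled CPM on a log axis, for 10 genes in each of 4 panels (receptors, signalling, transcription factors and metabolism). Blue dots are suspension, red dots are laminin and the short bars are group means. In each gene drawn, the 3 blue and 3 red dots occupy separate ranges, as in Adgrg1 and Nlrp3, and the spread within a group is widest in genes such as Cyp1a1 and Hbegf.

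The Notch pathway was the signalling list with the highest share of rises: 15 of 39 tested genes rose and 4 fell. Notch receptors are cut by gamma-secretase after ligand binding, and the released part acts with the DNA-binding protein Rbpj on genes of the Hes and Hey families. Notch1 (25496) rose from 52.5, 46.7 and 51.1 CPM to 210.2, 199 and 271 CPM, by 2.18 ± 0.11 (edgeR adjusted p = 1.55e-06). Notch3 rose from 2.12, 2.41 and 2.77 CPM to 11.3, 5.98 and 8.36 CPM, by 1.80 ± 0.33. In both genes each laminin library lay above each suspension library. Notch2 (29492) went the other way, from 369, 383 and 367 CPM to 218, 224 and 289 CPM, a fall of 0.61 ± 0.10 (edgeR adjusted p = 0.00235).

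The other members are described by role. Among the ligands that rose was Jag1, by 0.81 ± 0.11 from 33.3, 43.5 and 43.2 to 77.9, 68.7 and 63.4 CPM. Neurl3, which belongs to a family of ubiquitin ligases that includes regulators of Notch ligands, rose by 2.48 ± 0.16 from 4.35, 4.48 and 4.21 to 21.6, 27.4 and 23.6 CPM. Rbpj itself fell by 0.98 ± 0.19 from 249, 306 and 297 CPM to 163, 153 and 114 CPM (edgeR adjusted p = 0.00632), and Lfng, which encodes a sugar transferase that modifies Notch, fell by 1.004 ± 0.12 from 65.6, 67.6 and 70.5 to 35.9, 29.0 and 36.7 CPM. None of these genes overlapped between the groups.

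Of the 5 Hes and Hey genes tested, 4 rose, and Hes6 was not called. Hey2 (155430) went from 4.17, 3.53 and 3.60 CPM to 25.1, 20.6 and 18.6 CPM, by 2.51 ± 0.18 (edgeR adjusted p = 1.12e-05). Hes1 (29577) went from 19.4, 61.5 and 49.0 CPM to 122.6, 123.5 and 131 CPM, by 1.54 ± 0.30 (edgeR adjusted p = 0.00694), with suspension 1 below the other suspension libraries and no overlap. Hey1 had 3 counts over the suspension libraries and 60 over the laminin libraries, an 18.9-fold ratio (95% counting interval 6.16 to 94.2). Hes2 had 3 counts against 98, a 30.9-fold ratio (95% counting interval 10.3 to 152). Nrarp, an inhibitor made in response to Notch, had 0, 0 and 1 counts in suspension and 83, 103 and 91 on laminin. That is a 262-fold ratio (95% counting interval 46.6 to 10377).

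RefSeq promoter windows of assembly GRCr8 were searched for the Rbpj motif GTGGGAA on both strands. The windows run from 250 bases before a start site to 50 bases after it, and 8226 of the 10020 tested genes had one, with the first window taken where several were listed. Hes1 and Hey2 are shown because both rose and both hold the motif before the start, in Hey2 at 61 bases, and Lfng because it holds the motif and fell. Each is written 5′ to 3′ on the gene's strand, and the capitals mark the motif. The Hes1 window is chr11:84212996-84213295 on the minus strand, the Hey2 window chr1:28640850-28641149 on the plus strand and the Lfng window chr12:19152869-19153168 on the minus strand.
Hes1: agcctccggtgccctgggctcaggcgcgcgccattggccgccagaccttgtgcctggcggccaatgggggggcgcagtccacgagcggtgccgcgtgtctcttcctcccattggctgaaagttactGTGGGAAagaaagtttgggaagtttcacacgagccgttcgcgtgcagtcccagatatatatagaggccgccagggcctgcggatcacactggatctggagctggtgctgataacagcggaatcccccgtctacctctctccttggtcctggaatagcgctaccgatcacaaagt
Hey2: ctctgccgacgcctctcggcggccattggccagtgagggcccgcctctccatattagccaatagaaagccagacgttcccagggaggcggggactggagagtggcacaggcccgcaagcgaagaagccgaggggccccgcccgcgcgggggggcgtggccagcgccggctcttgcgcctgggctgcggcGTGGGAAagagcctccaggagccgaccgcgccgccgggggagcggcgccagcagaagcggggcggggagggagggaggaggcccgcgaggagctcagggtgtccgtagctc
Lfng: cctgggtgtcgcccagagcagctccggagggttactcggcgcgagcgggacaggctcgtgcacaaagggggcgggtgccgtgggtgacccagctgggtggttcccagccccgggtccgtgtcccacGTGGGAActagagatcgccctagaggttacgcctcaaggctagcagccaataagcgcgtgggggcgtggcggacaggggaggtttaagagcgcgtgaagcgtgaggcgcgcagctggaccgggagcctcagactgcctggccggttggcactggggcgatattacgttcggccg

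The window of Nrarp, the topmost change, held no match to the Rbpj motif, and Hey1 and Hes2 had no match or no window. The motif was present in 6.37% of all 8226 windows, in 8.37% of the 992 windows of genes that rose and in 3.19% of the 564 windows of genes that fell. Among genes changed by at least 2-fold it was present in 12.4% of 113 windows of rises and 3.66% of 82 windows of falls. These shares are descriptions, and a match does not show a binding site.

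Growth factor ligands were the signalling list with the highest share of falls: 12 of 30 tested genes fell and 1 rose, and the median change was -0.45. The matricellular genes Ccn1 and Ccn2, which are targets of YAP and TAZ, belong to this list. Ccn1 (83476) was at 437, 585 and 554 CPM in suspension and 75.9, 31.4 and 60.6 CPM on laminin, and Ccn2 (64032) at 659, 765 and 594 and 117, 72.2 and 91.8 CPM. Hbegf (25433), a ligand of the EGF receptor, fell by 3.08 ± 0.30 from 49.9, 137 and 93.2 CPM to 10.6, 11.7 and 10.7 CPM (edgeR adjusted p = 8.14e-05). Tgfa, another EGF receptor ligand, fell by 1.10 ± 0.18 from 462, 800.4 and 721 to 278, 305 and 342 CPM. In Hbegf and Tgfa suspension 1 was the lowest suspension library, and in none of the 4 genes did the groups overlap.

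Csf1 (78965), which supports macrophages, was at 576, 582 and 587 CPM in suspension and 207, 251 and 261 CPM on laminin, a fall of 1.28 ± 0.10 (edgeR adjusted p = 1.77e-05). Fgf7, a ligand for epithelial FGF receptors, fell by 1.93 ± 0.30 from 70.6, 66.5 and 68.5 to 18.5, 23.3 and 12.1 CPM, and the neurotrophin gene Bdnf by 1.59 ± 0.16 from 58.3, 60.6 and 67.6 to 22.2, 23.9 and 15.9 CPM. Vegfa, the main angiogenic factor gene, fell by 0.86 ± 0.08 from 162, 193 and 181 to 95.6, 101 and 97.0 CPM. The exception was the placental growth factor gene Pgf, which binds one of the same receptors as Vegfa and rose by 2.41 ± 0.28 from 0.823, 0.617 and 1.39 to 4.11, 5.27 and 5.73 CPM (edgeR adjusted p = 0.000343). Each of these genes separated the groups. Of 23 cytokine and chemokine genes 4 fell and 1 rose, and the endothelin gene Edn1 had 0.999, 1.91 and 1.44 CPM in suspension against 0.116, 0.0957 and 0 CPM on laminin. Its laminin values rest on very few reads, and no counting interval was computed for it.

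The Ccn2 window is shown because Ccn2 fell and its window holds the TEAD motif GGAATG 3 times, at 166, 101 and 92 bases before the start. It is RefSeq GRCr8 chr1:22624565-22624864 on the minus strand, with the motif in capitals.
Ccn2: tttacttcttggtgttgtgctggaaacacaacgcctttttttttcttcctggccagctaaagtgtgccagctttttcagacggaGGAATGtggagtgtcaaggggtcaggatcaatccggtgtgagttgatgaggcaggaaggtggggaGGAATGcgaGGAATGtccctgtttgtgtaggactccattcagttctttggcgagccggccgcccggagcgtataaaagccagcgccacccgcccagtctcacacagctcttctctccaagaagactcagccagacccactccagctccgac
Ccn1 holds 1 match at 113 bases before its start. The motif was in 906 of all 8226 windows, in 12.1% of those of genes that rose and 11.9% of those of genes that fell. Among changes of at least 2-fold it was in 15 of 113 windows of rises and 14 of 82 of falls.

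The list of TGF-beta and BMP ligands, antagonists and Smads had 12 falls and 2 rises among 40 tested genes, with a median of -0.27. Smads 1, 5 and 9 carry BMP signals and Smads 2 and 3 carry TGF-beta and activin signals. Smad1 (25671) was at 169, 158 and 162 CPM in suspension and 80.7, 79.2 and 78.1 CPM on laminin, a fall of 1.04 ± 0.06 (edgeR adjusted p = 2.59e-06). Smad9 fell by 1.82 ± 0.16 from 8.75, 7.90 and 9.70 to 2.02, 3.06 and 2.30 CPM. Smad3 (25631) was at 135, 135 and 136 CPM in suspension and 302, 254 and 316 CPM on laminin, a rise of 1.10 ± 0.10 (edgeR adjusted p = 3.5e-05). In these 3 genes the groups did not overlap. Smad5 was at -0.29 ± 0.08 (edgeR adjusted p = 0.0313, and up to 0.105 with 1 library left out). Smad2 was at -0.15 ± 0.07 and did not pass (edgeR adjusted p = 0.156).

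Inhibitors and target genes of this pathway fell as well. The inhibitory Smads, Smad6 and Smad7, fell by 0.94 ± 0.15 and 1.18 ± 0.09. Id1 (25261), a BMP target that blocks basic helix-loop-helix factors, fell by 1.83 ± 0.20 from 429, 351 and 397 CPM to 78.3, 134.4 and 118 CPM (edgeR adjusted p = 0.000182), and Id3 by 1.12 ± 0.22 from 516, 461 and 530.0 to 165, 278 and 251 CPM. Laminin 1 was the lowest library in both Id genes. Of the 11 receptors of this family, 1 rose and 3 fell, but 0 were called without suspension 1, suspension 2, suspension 3 or laminin 3, and 1 without laminin 1 or laminin 2.

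Regulators of Ras and Rap gave 7 rises and 6 falls of 52. Rap1 controls integrin activation, and 2 of its inactivators rose. Rap1gap2 (303298) went from 35.8, 53.5 and 46.5 CPM to 185, 183 and 199.9 CPM, by 2.06 ± 0.12 (edgeR adjusted p = 3.16e-06), and Sipa1l2 (361442) from 46.8, 52.5 and 48.5 CPM to 144, 129 and 148 CPM, by 1.51 ± 0.09 (edgeR adjusted p = 2.74e-06). Rapgef2 (310533), an activator of Rap1, fell by 1.19 ± 0.17 from 108, 108 and 111 CPM to 55.4, 45.5 and 41.8 CPM (edgeR adjusted p = 0.00122). All 3 separated the groups. Sipa1l3, a relative of Sipa1l2, fell by 0.63 ± 0.15 (edgeR adjusted p = 0.0182), and its call ended in 4 of the 6 fits that left out 1 library, over which the change ranged from -0.80 to -0.52.

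Of 69 MAP kinase genes 6 rose and 13 fell, and phosphatases and Sprouty genes held the 4 largest falls. Without suspension 2 this list gave 2 rises and 6 falls, without suspension 3 it gave 1 and 5, and with the 6 libraries and the block 1 and 4, while the fits without laminin 1, 2 and 3 gave 3, 4 and 3 rises with 9, 8 and 9 falls. Dusp1 (114856), a phosphatase of MAP kinases, fell by 1.82 ± 0.18 from 97.6, 136 and 151 to 31.4, 33.5 and 44.3 CPM, and Dusp8 by 1.67 ± 0.21 from 5.93, 6.44 and 7.87 to 2.14, 1.58 and 2.69 CPM. Among 52 PI3K, AKT and mTOR genes, 10 rose and 9 fell, with 7 and 4 without suspension 2, 4 and 3 without suspension 3 and 6 and 4 with the 6 libraries and the block. The kinase gene Sgk1 (29517) was at 496, 646 and 664 CPM in suspension and 142, 132 and 140.0 CPM on laminin, and its relative Sgk2 fell by 1.45 ± 0.23 from 4.64, 8.69 and 7.42 to 2.26, 2.30 and 3.03 CPM. Flcn and Sesn1, which act on mTOR complex 1, rose by 0.93 ± 0.12 and 0.92 ± 0.19.

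The Wnt list gave 5 rises and 4 falls of 45, a share of 20% against 19% of all genes. Its largest change was a fall, at -2.06. The largest called rises were the co-repressors Tle1 (8.75, 11.3 and 11.5 to 34.8, 34.2 and 35.2 CPM, 1.72 ± 0.11) and Tle3 (1.17 ± 0.11), while beta-catenin, Ctnnb1, rose by 0.41 ± 0.06. The NF-kB list gave 6 rises and 7 falls of 36. Without suspension 1, 2 and 3 its calls were 3 and 4, 2 and 3, and 2 and 3, without laminin 1, 2 and 3 they were 6 and 3, 4 and 3, and 2 and 4, and with the 6 libraries and the block 1 and 3. It had the inhibitor gene Nfkbia up by 0.81 ± 0.08 from 73.1, 67.5 and 69.5 to 118, 122 and 129 CPM and the related nuclear protein gene Nfkbiz down, at -1.72 ± 0.32. In the Hedgehog list, 1 gene rose and 3 fell of 13, with Gli2 at 0.94 ± 0.15 and Gli1 at -0.69 ± 0.12, transcription factors of that pathway. JAK, STAT and SOCS genes gave 1 call of 24, a rise, and phospholipase C, PKC and calcium genes 3 of 45. The JAK call was absent without suspension 1, suspension 2, laminin 2 or laminin 3. Cyclic nucleotide genes gave 2 rises and 4 falls of 43, and heterotrimeric G proteins and their regulators 2 rises and 5 falls of 36.

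Basic helix-loop-helix factors had the highest share of calls among the transcription factor lists, with 11 rises and 9 falls of 47. Beside the Hes, Hey and Id genes, Twist2 (59327), a mesenchymal repressor, was at 20.4, 19.95 and 21.7 CPM in suspension and 46.7, 47.4 and 50.01 CPM on laminin, a rise of 1.21 ± 0.08 (edgeR adjusted p = 4.39e-06). Its relative Twist1 rose by 0.83 ± 0.11. Atoh8 fell by 1.01 ± 0.21 from 222, 182 and 235 to 80.8, 111 and 125 CPM. Ahrr (498999), the repressor of the aryl hydrocarbon receptor, rose by 1.34 ± 0.13 from 13.98, 16.5 and 16.0 CPM to 36.3, 44.1 and 37.0 CPM (edgeR adjusted p = 0.000106). The receptor gene Ahr was at 120.4, 123.3 and 114 CPM in suspension and 67.6, 63.1 and 40.02 CPM on laminin, a change of -1.07 ± 0.26 that was called, but not without suspension 2 (-1.04), suspension 3 (-1.10) or laminin 3 (-0.87). Each of these genes kept the groups apart.

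Nfatc2 (311658), a calcium-regulated factor, gave the largest rise of a transcription factor outside the Hes and Hey families. It was at 1.94, 1.40 and 1.33 CPM in suspension and 11.7, 9.81 and 9.82 CPM on laminin, a rise of 2.75 ± 0.17 (edgeR adjusted p = 4.12e-06). The forkhead gene Foxs1 rose by 1.87 ± 0.34 from 13.2, 18.6 and 13.1 to 73.9, 46.5 and 44.3 CPM, with laminin 1 the highest library. The zinc finger repressor gene Hic1 (303310) rose by 1.55 ± 0.13 from 5.76, 6.61 and 6.32 to 19.1, 18.0 and 17.7 CPM, and the homeobox gene Msx2 by 1.13 ± 0.14 from 22.3, 26.2 and 28.3 to 46.4, 59.5 and 61.9 CPM. No laminin library of these genes reached the suspension range. Gata6, a cardiac and endodermal factor gene, rose by 0.54 ± 0.07.

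Falls among the factors included developmental and early response genes. Mybl1 (297783) was at 107, 126 and 119.7 CPM in suspension and 25.7, 35.3 and 13.6 CPM on laminin, a fall of 2.24 ± 0.40 (edgeR adjusted p = 0.00443), and Dlx2 (296499), a homeobox gene, was at 11.1, 14.5 and 16.2 and 2.08, 3.45 and 3.37 CPM, a fall of 2.22 ± 0.22. Gata3 (85471) fell by 1.51 ± 0.16 from 7.28, 7.12 and 6.93 to 2.14, 2.01 and 3.37 CPM. Egr1, an immediate early gene, fell by 2.41 ± 0.38 from 37.1, 107 and 102 to 19.2, 12.4 and 14.8 CPM, with suspension 1 well below suspension 2 and 3 and still above laminin. The AP-1 gene Junb fell by 0.92 ± 0.15. Other early response factor genes were not called lower. Their means in suspension and on laminin were 369 and 327 CPM for Jun and 4.35 and 2.97 CPM for Fos. Those of Fosb were 7.77 and 8.63 CPM, of Nr4a1 10.6 and 10.7 CPM and of Atf3 2.51 and 3.97 CPM. By list, KLF, EGR, GATA and related zinc finger genes gave 11 rises and 14 falls of 86, homeobox genes 4 and 7 of 57, bZIP genes 7 and 4 of 40, nuclear receptors 5 and 4 of 27, and the list with ETS, RUNX, NFAT and TEAD genes 8 and 8 of 57. The shares called were 29.1%, 19.3%, 27.5%, 33.3% and 28.1%, against 19% of all genes.

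**Figure D3:**
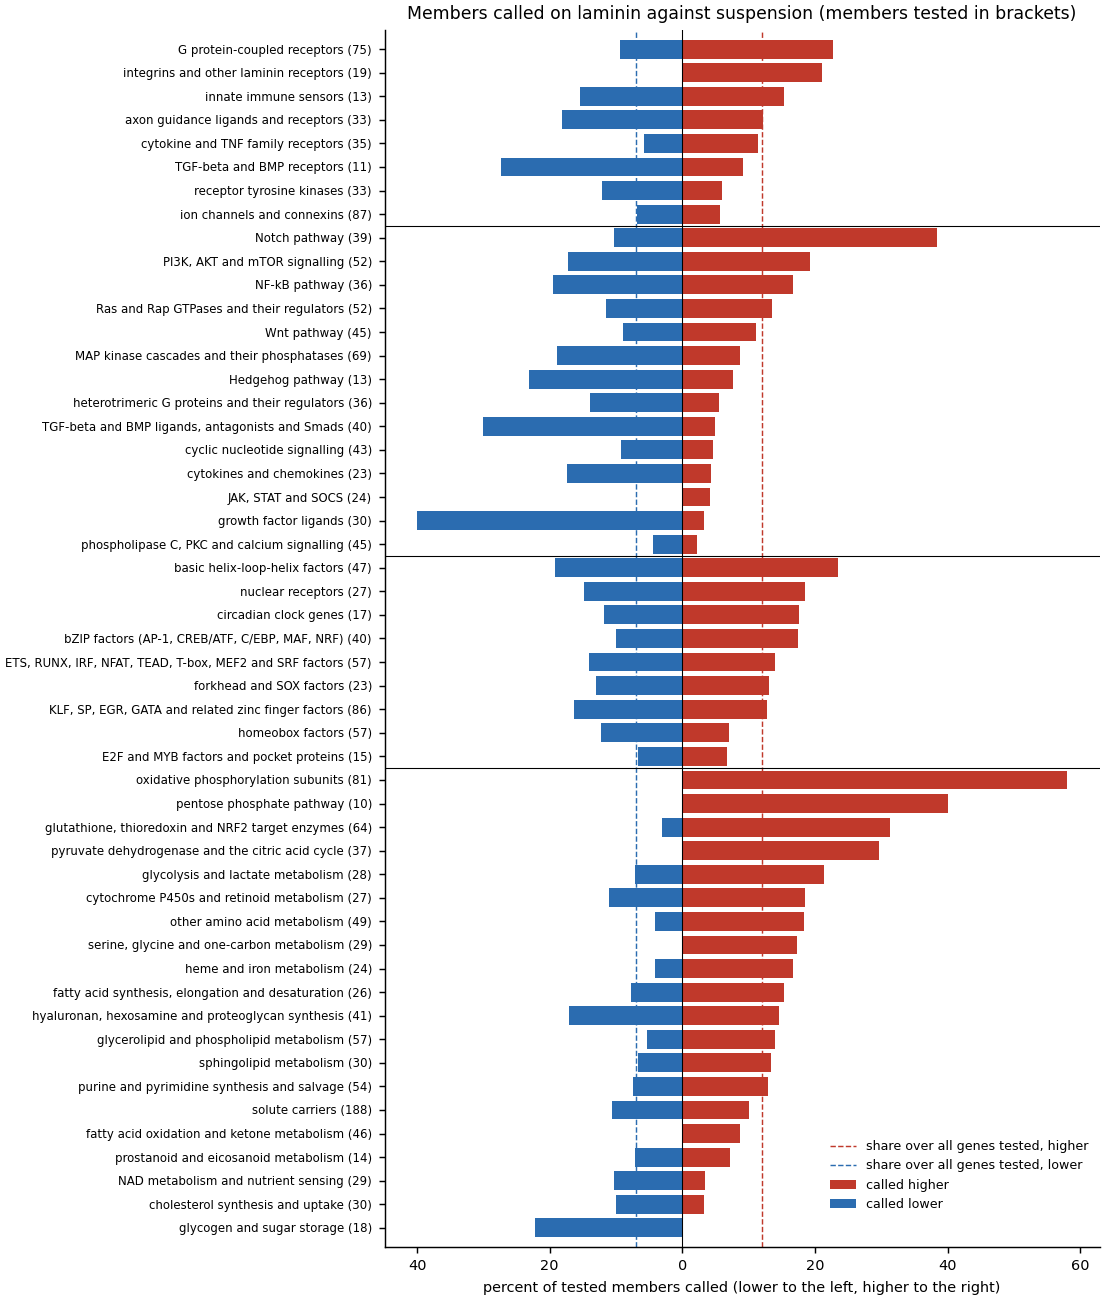
Bars give the percent of tested members called lower (blue, to the left) and higher (red, to the right) in 51 lists, with the number tested in brackets and the dashed lines at 12.1% and 6.96%, the shares over all genes tested. Horizontal lines part receptors, signalling, transcription factors and metabolism. The longest bars are the rises of the oxidative phosphorylation list (47 of 81) and the falls of the growth factor list (12 of 30).

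Metabolic genes rose more often than they fell, and the subunits of oxidative phosphorylation stood out by count: 47 of 81 tested genes rose and 0 fell in edgeR, so 58.0% were called against 19% of all genes. DESeq2 called 49 rises and 0 falls, and at an unadjusted p under 0.05 there were 62 and 0. Most of these genes encode subunits of the electron transport chain and ATP synthase of the inner mitochondrial membrane. The list also holds the assembly factor genes Uqcc2, Uqcc3, Uqcc4 and Uqcc6, counted below with complex III and not called. The ATP synthase inhibitor gene Atp5if1 is counted with ATP synthase. The changes were small, with a median of 0.29 against -0.01 over all genes, and 79 of the 81 differences were positive. Calls were made in complex I (21 of 35 genes), complex II (4 of 4), complex III (3 of 13), complex IV (8 of 11) and ATP synthase (11 of 17), with medians between 0.26 and 0.30. The complex I gene Ndufa8 (296658) was at 24.7, 24.8 and 23.2 CPM in suspension and 32.6, 31.6 and 35.1 CPM on laminin, a rise of 0.45 ± 0.09 (edgeR adjusted p = 0.00682). The complex III gene Uqcrh (366448) went from 76.4, 78.9 and 79.8 CPM to 103, 99.3 and 107 CPM, by 0.39 ± 0.07 (edgeR adjusted p = 0.00618). In 64 of the 81 genes each laminin library lay above each suspension library, against 23.5% of all genes.

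The median of the oxidative phosphorylation genes was 0.23, 0.29 and 0.36 in batches 1, 2 and 3, and 69 genes were positive in every batch. The number of calls varied with the fit more than the median, which ranged from 0.25 to 0.32 over the fits that follow. Calls numbered 63 with the batch as a block, 31 without batch 3, 23, 8 and 4 without suspension 1, 2 and 3, 32, 25 and 10 without laminin 1, 2 and 3, and 19 with library size scaling. With only these 6 libraries and the block, edgeR called 0 of the 81 genes, with a median of 0.28. Cytochrome c, Cycs, did not follow, at 90.2, 98.2 and 97.7 CPM in suspension and 88.7, 106 and 60.5 CPM on laminin (-0.17 ± 0.22, edgeR adjusted p = 0.605).

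Of 37 pyruvate dehydrogenase and citric acid cycle genes, 11 rose and 0 fell in edgeR and in DESeq2 (16 and 1 at an unadjusted p under 0.05), with a median of 0.20, and 4 of the 11 were the complex II genes already counted. Leaving out 1 library gave between 1 and 5 calls in this list, fewest without suspension 3, and the 6 libraries with the block gave 0. Of 28 glycolysis genes, 6 rose and 2 fell, with a median of 0.09. The rises numbered 2 without suspension 1, 2 or 3 or laminin 3 and 3 without laminin 1 or laminin 2, and the falls between 0 and 3. The list was led by Pfkp (60416), a form of phosphofructokinase, from 139.6, 156 and 151 CPM to 206, 201 and 226 CPM (0.50 ± 0.08, edgeR adjusted p = 0.00229), and pyruvate kinase, Pkm (25630), from 1197, 1177 and 1218 CPM to 1596, 1631 and 1785 CPM (0.48 ± 0.08, edgeR adjusted p = 0.0033). Both genes separated the groups. In the pentose phosphate pathway 4 of 10 genes rose and 0 fell in edgeR, in DESeq2 and at an unadjusted p under 0.05, with a median of 0.03. Leaving out 1 library gave between 1 and 4 calls, fewest without suspension 2, suspension 3 or laminin 3, and the 6 libraries with the block gave 0.

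**Figure D4:**
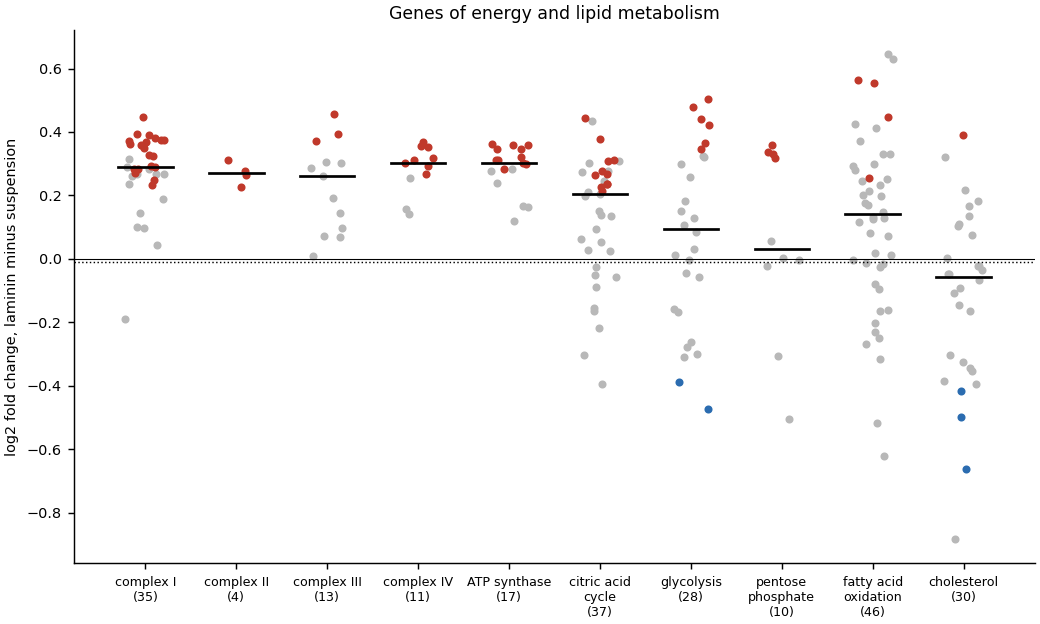
Each dot is the log2 fold change of 1 gene, laminin minus suspension, in 5 respiratory complexes and 5 other metabolic lists, with the number of genes in brackets. Red dots were called higher, blue lower and grey not called, black bars are medians and the dotted line is the median of all genes, -0.01. The respiratory complexes have medians from 0.26 to 0.30, and complex I reaches down to -0.19, whereas the cholesterol list centres below 0, at -0.06.

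Enzymes of glutathione, thioredoxin and the NRF2 response gave 20 rises and 2 falls of 64, with a median of 0.30. Without suspension 3 there were 13 rises, and with the 6 libraries and the block 11. NRF2, encoded by Nfe2l2, drives many of these genes under oxidative or electrophilic stress. Nqo1 (24314), a quinone reductase, was at 273, 454 and 351 CPM in suspension and 896, 1189.6 and 909 CPM on laminin, a rise of 1.47 ± 0.20 (edgeR adjusted p = 0.000906). Osgin1 (171493), a growth inhibitor induced by oxidative stress, rose by 1.75 ± 0.13 from 16.1, 14.6 and 14.4 to 45.8, 52.4 and 53.6 CPM (edgeR adjusted p = 1.02e-05). The glutathione synthase gene Gss (25458) rose by 0.82 ± 0.08 from 63.6, 68.3 and 66.3 CPM to 120.1, 110.2 and 119.5 CPM (edgeR adjusted p = 7.08e-05). None of these genes overlapped between the groups. The heme oxygenase gene Hmox1 was higher by 1.13 ± 0.27 (edgeR adjusted p = 0.016), and its call ended without suspension 1 (1.04), suspension 3 (1.11) or laminin 2 (0.84).

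Not all members of this list followed. The limiting enzyme of glutathione synthesis has a catalytic chain, Gclc, at 0.30 ± 0.14, and a modifier chain, Gclm, at -0.02 ± 0.11, and neither passed. Without batch 3, Gclc was at 0.44 (edgeR adjusted p = 0.0163). The cystine transporter gene Slc7a11 was at 141, 231 and 198 CPM in suspension and 133, 172 and 82.2 CPM on laminin, with overlapping groups (edgeR adjusted p = 0.29). Nfe2l2 was at 206, 239.9 and 231 CPM in suspension and 312, 319 and 185 CPM on laminin, with laminin 3 below the suspension libraries, and its change of 0.27 ± 0.24 did not pass (edgeR adjusted p = 0.44). Without batch 3 it was 0.50 (edgeR adjusted p = 0.00735).

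Cytochrome P450 and retinoid genes gave 5 rises and 3 falls of 27. Cyp1a1 (24296), the best known target of the aryl hydrocarbon receptor, was at 0.0587, 0.448 and 0.332 CPM in suspension and 7.35, 16.6 and 10.6 CPM on laminin, a rise of 5.31 ± 0.70 (edgeR adjusted p = 0.000702). Cyp1b1 (25426), another target, was at 236, 184 and 201 CPM in suspension and 875, 929 and 638 CPM on laminin, a rise of 1.97 ± 0.21 (edgeR adjusted p = 0.000177). Suspension and laminin did not overlap in either gene. The receptor's motif TNGCGTG, searched on both strands, was in the windows of Cyp1b1 and Ahrr, at 22 and 59 bases before the start, and in 8.23% of all windows, 8.17% of those of genes that rose and 9.22% of those of genes that fell. Among changes of at least 2-fold it was in 7.96% of windows of rises and 3.66% of falls. Cyp1a1 had no match or no window, and other named genes, such as Hes1 and Twist2, held a match.

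Glycerolipid and phospholipid genes gave 8 rises and 3 falls of 57, and between 3 and 5 calls in every fit that left out 1 library. Genes of fatty acid synthesis gave 4 rises and 2 falls of 26. Of 46 genes of fatty acid oxidation 4 rose and 0 fell in edgeR and in DESeq2 (15 and 2 at an unadjusted p under 0.05), among them Acaa2, a thiolase, at 0.56 ± 0.10, and the thioesterase gene Acot7 at 0.55 ± 0.10. Cholesterol synthesis and uptake gave 1 rise and 3 falls of 30, and between 0 and 2 calls with 1 library left out, 0 without suspension 3. The sphingolipid list had 4 rises and 2 falls of 30, a share of 20% against 19% of all genes. It was led in p by the ceramide desaturase gene Degs1 (58970), from 209, 227 and 212 CPM to 315, 316 and 303 CPM (0.53 ± 0.06, edgeR adjusted p = 0.000158). Mlycd, which breaks down malonyl-CoA, rose by 0.96 ± 0.12 from 11.9, 10.03 and 10.4 to 21.2, 20.2 and 21.6 CPM. In Degs1 and Mlycd the groups lay apart.

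Serine, glycine and one-carbon genes gave 5 rises and 0 falls of 29 in edgeR (6 and 2 in DESeq2 and at an unadjusted p under 0.05), and other amino acid genes 9 rises and 2 falls of 49, with the glutaminase gene Gls2 at 12.8, 11.4 and 11.6 and 21.6, 18.29 and 21.9 CPM (0.78 ± 0.11). Purine and pyrimidine genes gave 7 rises and 4 falls of 54, and between 2 and 7 calls with 1 library left out, fewest without suspension 3. Genes of glycogen and sugar storage gave 4 falls and 0 rises of 18 in edgeR and in DESeq2 (4 and 3 at an unadjusted p under 0.05). In proteoglycan and hyaluronan synthesis 6 rose and 7 fell of 41. The heparan 6-sulfation enzyme gene Hs6st1 fell by 1.01 ± 0.11 from 127, 106 and 121 to 53.4, 54.7 and 67.4 CPM, while the chondroitin 4-sulfation enzyme gene Chst12 (304322) rose by 1.29 ± 0.11 from 29.8, 21.1 and 24.5 to 59.6, 61.4 and 63.2 CPM (edgeR adjusted p = 3.47e-05). Neither gene overlapped between the groups.

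Of 188 solute carriers, 19 rose and 20 fell, a share of 20.7% against 19% of all genes. The urate and sugar transporter gene Slc2a9 (501925) was at 1.23, 1.12 and 1.27 CPM in suspension and 5.50, 4.26 and 4.94 CPM on laminin, a rise of 2.01 ± 0.15 (edgeR adjusted p = 1.24e-05). The neutral amino acid carriers Slc1a4 and Slc43a2 rose by 0.59 ± 0.07 and 1.07 ± 0.17. Slc26a9, an anion carrier, fell by 2.36 ± 0.36 from 0.881, 1.12 and 1.11 to 0.173, 0.192 and 0.225 CPM, and the groups of Slc2a9 and Slc26a9 did not overlap.

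Genes outside the lists were also among the largest changes. Olfml2a (296708), an olfactomedin-like secreted protein gene, was at 8.34, 8.91 and 9.03 CPM in suspension and 60.05, 41.5 and 53.9 CPM on laminin, a rise of 2.56 ± 0.16 (edgeR adjusted p = 4.12e-06). Eepd1, which takes part in DNA repair and cholesterol efflux, rose by 2.53 ± 0.15 from 1.88, 1.74 and 2.16 to 10.2, 11.97 and 11.2 CPM, and the ubiquitin ligase gene Rnf144b by 2.04 ± 0.13 from 9.93, 11.8 and 13.2 to 53.5, 43.1 and 47.1 CPM. No library of one group entered the range of the other. The prohormone convertase gene Pcsk2 (2.50 ± 0.30), the lens filament gene Bfsp1 (2.31 ± 0.22) and the small GTPase gene Arl4d (2.20 ± 0.20) rose too.

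The cells were checked against markers. Gata4, a cardiac transcription factor gene, had a mean of 91.7 CPM in suspension and 86.2 CPM on laminin, and Kit 3.55 and 2.92 CPM, and 0 of the 3 tested progenitor markers was called by edgeR, by DESeq2 or at an unadjusted p under 0.05. The progenitor genes Isl1, Nanog, Sox2 and Pou5f1 had 0 counts in these 6 libraries. Of the 14 cardiomyocyte markers 3 were tested and 1 rose, the troponin gene Tnnt2, at 2.00, 1.85 and 1.55 CPM in suspension and 5.26, 5.03 and 5.67 CPM on laminin (1.56 ± 0.18, edgeR adjusted p = 0.000343). The groups did not overlap. The other tested markers of this list, Nppb and Tnni3, were not called. Nppb had 584 counts over the suspension libraries and 667 over the laminin libraries, and Tnni3 had 27 and 21. The defining genes Myh6, Myh7, Myl2, Myl7, Nkx2-5, Pln and Ryr2 had 0 counts in these libraries.

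In further lists the count also moved when 1 library was left out, as it did over all genes tested. There, 1905 calls became between 797 and 1439, fewest without suspension 3. Such fits hold fewer libraries, so a drop is not particular to these lists. Of KLF, SP, EGR, GATA and related zinc finger factors 25 were called, and 13 without suspension 3, 14 without laminin 3, 15 without suspension 2 and 16 without suspension 1. The list of ETS, RUNX and related factors gave 16 calls, and between 8 and 11 with 1 library left out, bZIP factors 11 and between 5 and 12, and nuclear receptors 9 and between 3 and 8. Solute carriers gave 39 calls, and 19 without suspension 3, while 23 were called without suspension 2 and without laminin 3. Proteoglycan and hyaluronan genes gave 13 calls and 6 without suspension 2, other amino acid genes 11 and 5 without suspension 3, and ion channels and connexins 11 and 6 without suspension 2 or suspension 3. By contrast, the Notch list gave 19 calls and between 14 and 19 with 1 library left out, and the growth factor ligands 13 and between 9 and 12.

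Summed markers of other cells moved with plating in some lists. Blood cell markers, with 4 tested of 11 and 2 called higher, summed to between 35.6 and 38.8 CPM in suspension and between 59.0 and 64.0 CPM on laminin, nearly all of it Cd14, with Spi1, Tyrobp and Hbb at 0 counts. Mesothelial and epithelial markers, with 4 tested of 8 and 1 called higher, summed to between 495 and 515 CPM and between 587 and 651 CPM, with Epcam and Krt18 at 0 counts. Endothelial markers, with 3 tested of 11 and 1 called higher, summed to between 36.6 and 39.2 CPM and between 40.9 and 50.7 CPM, with Cldn5 and Sox17 at 0 counts. Smooth muscle and pericyte markers, with 8 tested of 10, gave 2 rises (Notch3 and Pdgfrb) and 2 falls (Smtn and Myh11) and summed to between 489 and 604 CPM and between 481 and 531 CPM. Fibroblast and mesenchymal markers, with 10 tested of 14, gave 2 rises (S100a4 and Vim) and 1 fall (Fn1) and summed to between 13854 and 15487 CPM and between 13778 and 15059 CPM, with Dcn and Tcf21 at 0 counts. Genes of the dissociation and heat shock response, all 18 tested, gave 1 rise and 5 falls and summed to between 2542 and 2888 CPM in suspension and between 2080 and 2371 CPM on laminin. Egr1, Dusp1, Junb, Hspa1a and Btg2 were the 5 falls. The part of these genes and cells in the other results was not tested.

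The laminin response was set against the other surfaces only through the tests of laminin minus fibronectin and laminin minus no coating, which share the laminin libraries. Against no coating, edgeR called 0 of 10020 genes (0%), with 156 genes at an unadjusted p under 0.05 (1.56%), and DESeq2, the block and the fit without batch 3 each called 0. Nothing in the response is therefore shown to be particular to laminin rather than to plating. Against fibronectin, edgeR called 15 genes (0.15%), 1 higher and 14 lower on laminin, with 300 genes at an unadjusted p under 0.05, 45 called by DESeq2, 41 with the block and 12 without batch 3.

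Of the 15 genes, 14 were also called against suspension and the other was Rhob. Ccn1 was at 571 ± 115 CPM (SD, n = 3) on fibronectin and 55.96 ± 22.6 CPM on laminin, a difference of -3.35 ± 0.35 (edgeR adjusted p = 0.00216). Ccn2 was at 386 ± 98.3 CPM and 93.7 ± 22.5 CPM, a difference of -2.04 ± 0.22 (edgeR adjusted p = 0.00232), and Nlrp3 at 7.41 ± 1.01 and 2.00 ± 0.34 CPM, a difference of -1.89 ± 0.20 (edgeR adjusted p = 0.00232). These differences kept their calls without each laminin library and without batch 3. The YAP-linked genes Amotl2, Ajuba and Nuak2 and the kinase gene Plk2, chosen after their values were seen, differed by -1.42 ± 0.10, -1.41 ± 0.11, -1.42 ± 0.11 and -1.73 ± 0.16. Gem, a GTPase of the Ras family, was the 1 gene higher on laminin, at 36.4 ± 5.18 CPM against 20.4 ± 0.80 CPM, a difference of 0.84 ± 0.12 (edgeR adjusted p = 0.0211). Its call ended without batch 3 (0.86), laminin 1 (0.73) or laminin 3 (0.83). Gata3 and Sgk1 differed by -1.28 ± 0.16 and -0.79 ± 0.10, and both calls ended without laminin 1 (-1.18 and -0.81) or laminin 2 (-1.14 and -0.76), and that of Sgk1 also without batch 3 (-0.77). The oxidative phosphorylation, Notch and NRF2 genes named before were not among the 15. On no coating, mean values were 80.9 CPM for Ccn1, 86.7 for Ccn2, 1.91 for Nlrp3 and 35.3 for Gem. These lay nearer to laminin than to fibronectin, and none of the 15 genes was called between laminin and no coating.

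**Figure D5:**
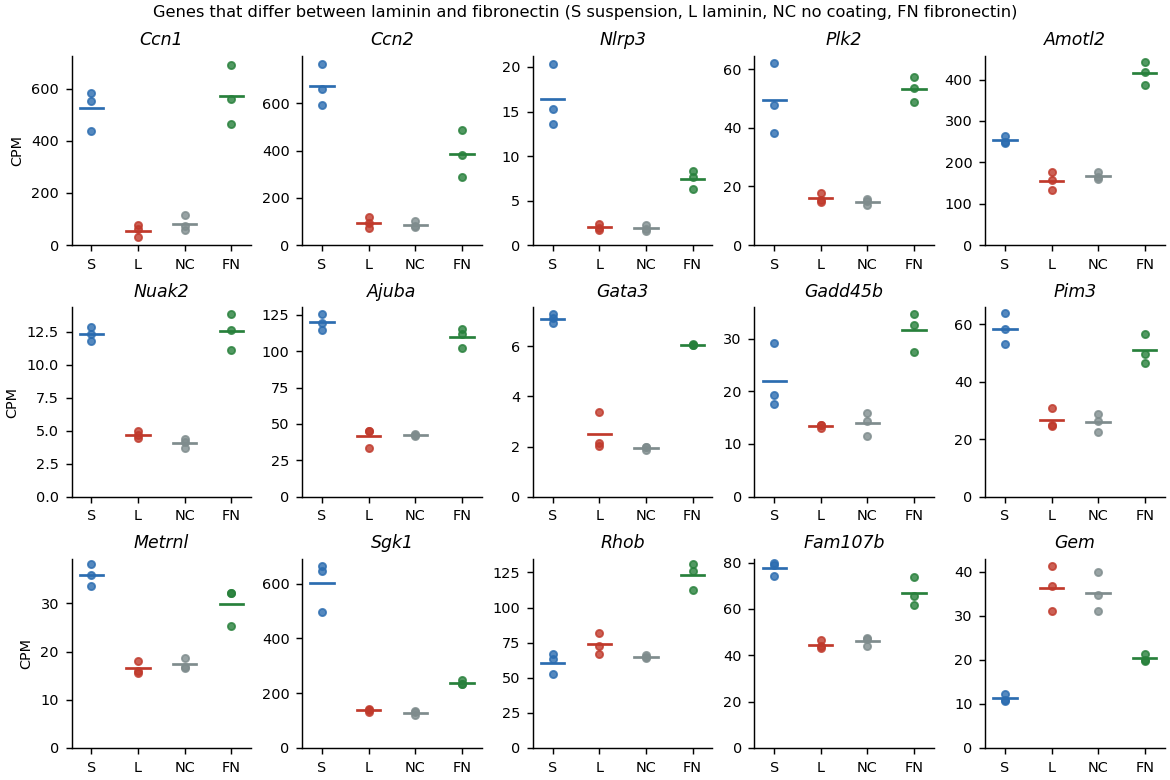
Each panel is 1 of the 15 genes called between laminin and fibronectin, with CPM from 0 on the y axis, 1 dot per library and a bar at the mean, for suspension (S), laminin (L), no coating (NC) and fibronectin (FN). In Plk2, laminin and no coating have means of 16.0 and 14.8 CPM and fibronectin 53.2 CPM.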

How the data were processed

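The deposited files hold whole-number read counts per Entrez gene ID, 1 file per library, per the file headers; per the submitters' processing notes, the reference was rn4. Which aligner, counter, annotation and strand setting the authors used is not given in the sources used here. Reads of overlapping or antisense genes may therefore be shared. Libraries were made with a stranded total RNA kit, per the labels' protocols. Of 16924 genes, 16761 IDs matched a RefSeq symbol and 3796 had no count. Filtering with filterByExpr left 10020 genes.

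CPM values were computed here with TMM scaling. edgeR 4.0.16 (R 4.3.3) fitted a quasi-likelihood model of 4 groups to all 12 libraries with 8 residual degrees of freedom. Benjamini-Hochberg adjustment ran over all genes tested. The scripts were tested on simulated data. Totals ranged from 16553746 to 20852160 counts in the 6 libraries. Genes with few counts in suspension that are given as count ratios carry 95% intervals, which cover counting error only. Genes with few counts on laminin, such as Edn1 and Slc26a9, carry none.

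Same-numbered libraries share a batch, per the labels. Deviations from group means correlated at 0.197, 0.252 and 0.0676 within batches 1, 2 and 3, and between -0.231 and 0.0263 across them. The batch entered as a block in an alternative fit. Other alternatives were a fit of 6 libraries, library size and RLE scaling, DESeq2 1.42.0, no filter and a stricter one, leaving out batch 3 and leaving out each library.

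The 52 lists are patterns of gene symbols, and members and lists were chosen with earlier results of these data known. The rule for named genes took the 15 largest rises and 15 largest falls that kept their direction in 3 batches and whose mean log2 CPM reached 2, and in each list the called members changed by at least 2-fold or otherwise the 2 with the smallest p. Other genes named were chosen after their values were seen. One list and some single genes are not reported here.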

Additional observations from a re-analysis of the deposited data

How the results depend on the processing

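Of 158 named genes, 0 reversed direction in the alternatives run. With the batch as a block 0 lost their call. With only the 6 libraries and the block 32 named genes lost their call, without batch 3 22 did, and between 12 and 32 did when 1 library was left out. DESeq2 and RLE scaling each ended 1 call, library size scaling 2 and the absence of a filter 3. The number of genes called was 4333 with the replicate block (2246 higher, 2087 lower) and 703 with the 6 libraries and the replicate block (393 higher, 310 lower). Leaving out 1 library gave between 797 and 1439 calls, with 481 to 918 higher and 316 to 521 lower. Library size scaling gave 802 higher. Changes of at least 2-fold numbered 404 with the replicate block, 152 with the stricter filter and between 198 and 255 with 1 library left out. Rises made up 63.4% of calls in the fit reported, 54.8% with library size scaling, 51.8% with the replicate block and 45.4% without batch 3. The cause was not tested. Between laminin and fibronectin 15 genes were called, 41 with the replicate block and 45 with DESeq2.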
